A study of Mus musculus with 6 samples.

Results

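The 8 prostanoid receptor genes, Ptger1, Ptger2, Ptger3, Ptger4, Ptgir, Ptgdr, Ptgfr and Tbxa2r, were read by name from a table of 54532 mouse genes, and all 8 were found there. RNA was sequenced from T cells of C57BL/6 mice aged 6–8 weeks, isolated from the spleen with a pan T-cell kit and kept with 10 ng/mL IL-2. In both groups the T cells had been activated beforehand for 72 h by anti-CD3 and anti-CD28 beads, and were then co-cultured with ID8, a mouse ovarian cancer cell line. In 3 libraries (cisplatin, titled CIS) the ID8 cells had been pretreated with 40 µM cisplatin, and in 3 libraries (control, titled WT) with PBS. The comparison addresses what T cells express after meeting tumour cells that have been exposed to the drug. The sources used here give neither the length of the co-culture nor a step that parted T cells from ID8 cells afterwards, and name the replicates biological or independent without saying whether they came from separate mice or cultures. The p-values measure the spread between these libraries, part of which may be technical if they shared a source.

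Prostanoids are short-lived lipids made from arachidonic acid by cyclooxygenases and then by a synthase for each product. Each acts close to where it is made, through G protein-coupled receptors on the cell surface. EP2 (Ptger2), EP4 (Ptger4), IP (Ptgir) and DP1 (Ptgdr) couple mainly to Gs and raise cAMP, which dampens T-cell receptor signalling. EP1 (Ptger1), FP (Ptgfr) and TP (Tbxa2r) couple mainly to Gq and raise calcium, and EP3 (Ptger3) couples mainly to Gi and lowers cAMP. PGE2, the ligand of the EP receptors, is known as a suppressor of T-cell activation in tumours.

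The libraries held 30606569 to 32169496 reads on genes, rebuilt from the deposited FPKM (fragments per kilobase of gene, divided by a total for each library). The T-cell label was checked with 27 T-cell identity genes, whose summed level was 2068 to 2196 FPKM in the control and 3251 to 3325 FPKM in the cisplatin libraries. Of these genes, 26 were higher and 1, Themis, was lower (adjusted p below 0.05, limma), with a median log2 fold change of 0.59. Markers of other cells were present in the same libraries. The 20 ID8 tumour markers summed to 1660 to 1740 FPKM in the control and 250.6 to 259.5 FPKM in the cisplatin libraries, and all 16 that were tested were lower by at least 2-fold. The 12 B-cell markers summed to 1712 to 1800 and 3655 to 3726 FPKM, most of it Ighm, the heavy chain of IgM (1433 and 3220 FPKM), without which the sums were 314 to 331 and 452 to 487 FPKM. Of them, 11 were higher and Cr2 did not pass. The 13 macrophage and monocyte markers summed to 65.9 to 70.3 and 129 to 148 FPKM, with 8 of the 10 tested higher, Cd14 lower (log2 fold change -0.47) and Cd68 at 24.1 and 24.2 FPKM. Adgre1, C1qa and Fcgr1 entered the test through their cisplatin libraries alone. Over all tested genes, 27.5% were higher and 29% lower. In bulk RNA, fewer cells of a type and less RNA per cell cannot be told apart.

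Of the 8 receptors, 7 matched an entry in the RefSeq promoter table (build GRCm38.p6, the assembly also called mm10, 250 bases before to 50 after a transcript start). The promoters below belong to the 3 receptors that rose in the test of the main filter and to Ptgfr, which was lower. Ptger1 has no entry in the table. Capitals mark the GC box (GGGCGG) and the core of the cAMP response element (TGACG), each searched on both strands, where neighbouring GC boxes may overlap. A match is a description of the letters only.
Tbxa2r, start nearer to the gene start of the table, chr10:81328453-81328752, plus strand: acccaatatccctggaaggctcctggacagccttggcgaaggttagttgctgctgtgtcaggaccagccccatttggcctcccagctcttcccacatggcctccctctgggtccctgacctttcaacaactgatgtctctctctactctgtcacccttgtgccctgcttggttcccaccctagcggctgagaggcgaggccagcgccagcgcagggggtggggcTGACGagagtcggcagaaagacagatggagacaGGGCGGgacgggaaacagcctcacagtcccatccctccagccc
Ptger2, chr14:44987861-44988160, plus strand: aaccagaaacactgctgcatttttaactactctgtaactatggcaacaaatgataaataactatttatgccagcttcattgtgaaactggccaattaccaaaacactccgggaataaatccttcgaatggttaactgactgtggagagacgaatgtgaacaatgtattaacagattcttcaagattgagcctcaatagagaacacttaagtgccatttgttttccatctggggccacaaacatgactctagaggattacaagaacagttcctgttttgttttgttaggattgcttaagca
Ptger4, chr15:5244138-5244437, minus strand: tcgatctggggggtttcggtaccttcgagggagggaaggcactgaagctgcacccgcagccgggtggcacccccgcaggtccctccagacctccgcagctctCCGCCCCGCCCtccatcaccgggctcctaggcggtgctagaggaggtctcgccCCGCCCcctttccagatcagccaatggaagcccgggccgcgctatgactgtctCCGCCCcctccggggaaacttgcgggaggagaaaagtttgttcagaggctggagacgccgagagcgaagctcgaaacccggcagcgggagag
Ptgfr, chr3:151837479-151837778, minus strand: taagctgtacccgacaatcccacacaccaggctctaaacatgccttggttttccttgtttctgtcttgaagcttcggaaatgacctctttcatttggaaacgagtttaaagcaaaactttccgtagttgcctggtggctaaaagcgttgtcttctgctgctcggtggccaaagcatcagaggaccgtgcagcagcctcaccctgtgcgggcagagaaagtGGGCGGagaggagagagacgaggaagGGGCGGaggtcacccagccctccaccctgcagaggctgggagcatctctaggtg
The 3 rising genes shown did not share these letters. The Ptger4 promoter held 4 GC boxes and was 67% G and C, the Tbxa2r promoter shown held 1 GC box and 1 cAMP response core, and the Ptger2 promoter held neither and was 37.7% G and C. The promoter of the other Tbxa2r start in the table held neither. The Ptgfr promoter held 2 GC boxes. Among all 32851 promoters of the table, 35.7% held a GC box, 20.8% a cAMP response core, and the median share of G and C was 52.7%. The AP-1 letters TGANTCA (7.81% of all promoters, both strands) were found in none of the promoters of the 7 receptors, and the hypoxia response core ACGTG (19.6% of all promoters) in that of Ptger3 alone.

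Tbxa2r, the receptor for thromboxane A2, was the most abundant prostanoid receptor transcript in every library, and Ptger2 was next. In the control libraries the mean levels ran from 17.9 FPKM for Tbxa2r over 4.16 FPKM for Ptger2, 2.11 for Ptgir, 1.90 for Ptger4, 0.537 for Ptger3, 0.532 for Ptgfr and 0.319 for Ptger1 to 0.0206 FPKM for Ptgdr. Ptgir and Ptger4 overlapped between libraries in this order, as did Ptger3, Ptgfr and Ptger1 with their neighbours. In the cisplatin libraries the order was Tbxa2r (29.6 FPKM), Ptger2 (9.75), Ptger4 (3.04), Ptgir (2.55), Ptger1 (0.628), Ptger3 (0.449), Ptgfr (0.0377) and Ptgdr (0.0226), where Ptger1 overlapped Ptger3 and Ptgfr overlapped Ptgdr. The 8 receptors together summed to 27.5 ± 0.988 FPKM (SD, n = 3) in the control and 46.1 ± 1.46 FPKM (SD, n = 3) in the cisplatin libraries. The share of Tbxa2r in this sum was 65.2% ± 1.05 (SD, n = 3) in the control and 64.2% ± 1.88 (SD, n = 3) in the cisplatin libraries, and these shares overlapped.

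**Figure D1:**
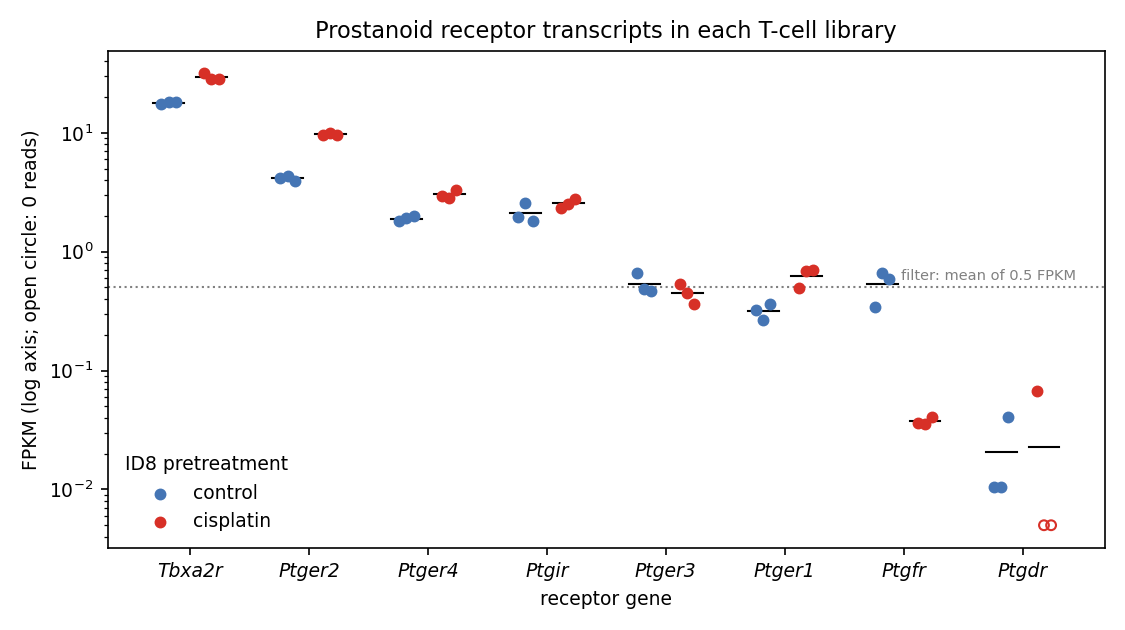
FPKM (log axis) of the 8 receptor genes in each library, blue for control and red for cisplatin, with a black line at the mean of each group, open circles for libraries with 0 reads and a dotted line at 0.5 FPKM. The red points lie above the blue ones for Tbxa2r, Ptger2, Ptger4 and Ptger1, below them for Ptgfr, and among them for Ptgir, Ptger3 and Ptgdr.

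The groups were compared by limma on log2(FPKM + 0.1) for the 15874 genes averaging 0.5 FPKM or more, a scale that understates the change of low genes. Ptger2, Ptger4, Ptgir and Tbxa2r passed this filter, and Ptger1, Ptger3, Ptgdr and Ptgfr did not. Of the 4 that were tested, 3 were higher at an adjusted p-value under 0.05, as were 27.5% of all tested genes. Only Ptger2 also reached the fold change of at least 2 that the study used, which 4.11% of all tested genes did upward and 16.9% in either direction. The split of all calls moved with the scaling. Lower genes made up 75.7% of the calls on the FPKM as deposited, 64.6% after quantile normalization and 96.0% when the 27 T-cell genes set the level of each library (T-cell centring), where the median log2 fold change of all tested genes was 0.03, 0.16 and -0.52.

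Among the receptors that raise cAMP, Ptger2 rose most in log2 fold change. Ptger2 (ENSMUSG00000037759, chromosome 14 from 44988195 to 45003820 of mm10) had 4.19, 4.34 and 3.95 FPKM in the control libraries and 9.65, 9.97 and 9.64 FPKM in the cisplatin libraries. All cisplatin libraries were above all control libraries, as for 31.9% of the tested genes, and the reads behind these values were 630 to 675 and 1621 to 1716 per library. The group means of 4.16 ± 0.193 and 9.75 ± 0.191 FPKM (SD, n = 3 each) differed 2.34-fold, with a log2 fold change of 1.21 (95% confidence interval 1.08 to 1.34, adjusted p = 4.6e-06 by limma). With T-cell centring its log2 fold change was 0.66 (adjusted p = 6.8e-05 by limma), short of the 2-fold minimum. Most B-cell markers (11 of 12) and macrophage markers (8 of 10 tested) were higher in the same libraries, as were 27.5% of all tested genes. Of the macrophage markers, Adgre1, C1qa and Fcgr1 passed the filter through their cisplatin libraries alone. The part of these markers in the rise of Ptger2 was not tested. The antisense transcript Gm17173 covers 4.74% of the exon bases of Ptger2 and had 0.560 FPKM in the control and 1.68 FPKM in the cisplatin libraries.

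Ptger4, the other PGE2 receptor that raises cAMP, rose less. Ptger4 (ENSMUSG00000039942, chromosome 15 from 5206661 to 5244187) had 1.80, 1.91 and 1.99 FPKM in the control and 2.95, 2.85 and 3.31 FPKM in the cisplatin libraries. The groups did not overlap, as for 31.9% of the tested genes in this direction. The log2 fold change was 0.65 (95% confidence interval 0.41 to 0.88, adjusted p = 0.0014 by limma), and 0.10 after the centring (adjusted p = 0.38 by limma, 95% confidence interval -0.13 to 0.33). A processed pseudogene on the other strand, Gm15937, covers 15.3% of its exon bases and had at most a mean of 0.00814 FPKM in a group, and Ttc33, also on the other strand, covers 1.23% and had 14.3 FPKM in the control and 12.3 FPKM in the cisplatin libraries.

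Ptgir, the receptor for prostacyclin, did not pass the test, and its value moved with the scaling. Ptgir (ENSMUSG00000043017, chromosome 7 from 16906490 to 16910905) had 1.95, 2.55 and 1.82 FPKM in the control and 2.34, 2.53 and 2.78 FPKM in the cisplatin libraries, with control replicate 2 inside the cisplatin range. Its log2 fold change was 0.28 (95% confidence interval -0.08 to 0.63, adjusted p = 0.16 by limma). Without control replicate 2 it was 0.42 (adjusted p = 0.034 by limma), after quantile normalization 0.47 (adjusted p = 0.029), and after the centring -0.27 (adjusted p = 0.14 by limma). Ptgdr, a receptor for PGD2, was at the limit of detection. It had 1, 1 and 4 reads in the control libraries and 7, 0 and 0 reads in the cisplatin libraries, where 3 reads correspond to 0.0284 to 0.0314 FPKM, and no fold change is given. Gm16976, a pseudogene on the other strand, covers 22.1% of its exon bases.

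Tbxa2r (ENSMUSG00000034881, chromosome 10 from 81328731 to 81335172) rose from 17.3, 18.4 and 18.1 FPKM in the control to 31.7, 28.6 and 28.5 FPKM in the cisplatin libraries. No library of a group reached the range of the other, as for 31.9% of the tested genes in this direction. Each library held 999 to 1966 reads on the gene. The means of 17.9 ± 0.533 and 29.6 ± 1.81 FPKM (SD, n = 3 each) gave a log2 fold change of 0.72 (95% confidence interval 0.59 to 0.84, adjusted p = 3.8e-05 by limma). After the centring the log2 fold change was 0.17 (95% confidence interval 0.04 to 0.30, adjusted p = 0.031 by limma). No annotated exon of another gene overlaps Tbxa2r. TP is best known from platelets, and the 7 platelet and megakaryocyte markers summed to 92.7 to 123.7 FPKM in the control and 81.8 to 95.9 FPKM in the cisplatin libraries. Of the 6 that were tested, 1 (Gp9) was higher and 1 (Ppbp) was lower, and their part in the level of Tbxa2r was not tested.

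**Figure D2:**
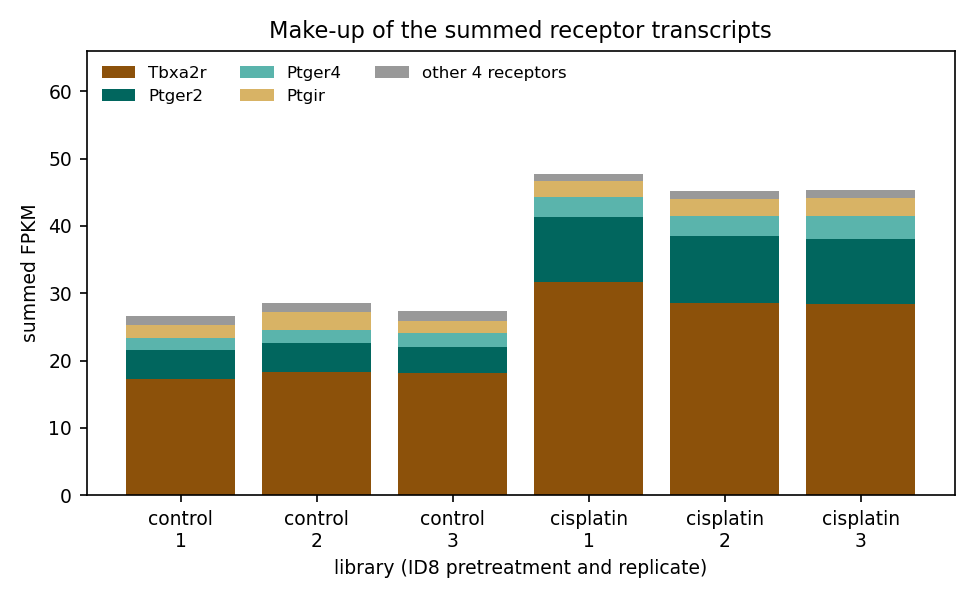
Summed FPKM of the 8 receptors in each library, stacked by receptor, with 3 control libraries on the left and 3 cisplatin libraries on the right. The total rises from 26.6 to 28.6 FPKM in the control to 45.1 to 47.7 FPKM in the cisplatin libraries, and the Ptger2 block grows from a mean of 15.1% to 21.2% of the total.

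A ratio of a pair of genes within a library does not depend on how libraries are scaled to each other. The log2 ratio of Ptger2 to Tbxa2r, the 2 most abundant receptors, was -2.11 ± 0.079 (SD, n = 3) in the control and -1.60 ± 0.102 (SD, n = 3) in the cisplatin libraries. Ptger2 thus stood at 23.2% of the Tbxa2r level in the control and at 33.0% in the cisplatin libraries. The difference of 0.51 on the log2 scale separated the groups completely (two-sided exact permutation test, p = 0.1, the smallest that 3 libraries against 3 allow). By the same measure Ptger4 stood at 45.7% of Ptger2 in the control and 31.1% in the cisplatin libraries, while Ptger4 against Tbxa2r was 10.6% and 10.3%. The 4 EP receptors together went from 6.92 ± 0.128 to 13.9 ± 0.213 FPKM (SD, n = 3 each), which was 25.2% and 30.1% of the sum over all 8 receptors.

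The receptors under the filter are given as values and reads, beside fits with a minimum of 0.1 FPKM on average (22369 genes, of which 11% were called lower and 3.64% higher at the 2-fold minimum) or with no filter (33456 genes, of which 7.31% were called lower). Ptgfr, the receptor for PGF2α (ENSMUSG00000028036, chromosome 3 from 151796502 to 151837630), had 0.344, 0.664 and 0.587 FPKM in the control and 0.0365, 0.0356 and 0.0410 FPKM in the cisplatin libraries. These are 70, 135 and 122 reads against 8, 8 and 9, and the control mean was 14.1 times the cisplatin mean. The groups did not overlap, as for 26.8% of the 22369 genes in this direction. Ptgfr passed a minimum of 0.1 FPKM through its control libraries alone, so the fit without a filter is given, where its log2 fold change was -2.16 on the log2(FPKM + 0.1) scale (adjusted p = 0.0037 by limma). The ID8 tumour markers moved the same way, with a median log2 fold change of -2.32 and a range of -3.61 (Krt19) to -1.15 (Cav1) over the 16 tested. The tumour keratins Krt8, Krt18 and Krt19 were at 169.5, 179.7 and 646 FPKM in the control and 35.3, 28.1 and 52.9 FPKM in the cisplatin libraries. Their part in the lower level of Ptgfr was not tested.

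Ptger1 (ENSMUSG00000019464, chromosome 8 from 83666678 to 83672753) had 0.323, 0.269 and 0.364 FPKM in the control and 0.492, 0.685 and 0.707 FPKM in the cisplatin libraries. The groups did not overlap, as for 25.3% of the 22369 genes in this direction, and an adjusted p below 0.05 was reached upward by 19.5%. Its log2 fold change was 0.79 (95% confidence interval 0.18 to 1.40, adjusted p = 0.045 by limma) with the minimum of 0.1 FPKM. This was short of the 2-fold minimum, so Ptger1 was not called. Without a filter the adjusted p was no longer below 0.05 (adjusted p = 0.11 by limma). With the centring the log2 fold change was 0.24 (adjusted p = 0.46 by limma). This value is uncertain, because a strand setting for the counting is not given in the sources used here, and reads from the 2 strands then cannot be told apart. The adjusted p rose to 0.063 to 0.12 when any library other than cisplatin replicate 1 was left out. With voom on the rebuilt reads the log2 fold change of Ptger1 was 0.96 (95% confidence interval 0.40 to 1.52, adjusted p = 0.0042 by limma). Ptger3 (ENSMUSG00000040016, chromosome 3 from 157566892 to 157645888) had 0.662, 0.487 and 0.464 FPKM in the control and 0.532, 0.451 and 0.363 FPKM in the cisplatin libraries, which overlapped. Its log2 fold change was -0.21 (95% confidence interval -0.82 to 0.40, adjusted p = 0.56 by limma), and -0.76 after the centring (adjusted p = 0.047 by limma). Ptgdr2, a receptor for PGD2 outside the prostanoid receptor family by sequence, had 0 to 2 reads in each library, and 38.99% of its exon bases are shared with Ccdc86.

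**Figure D3:**
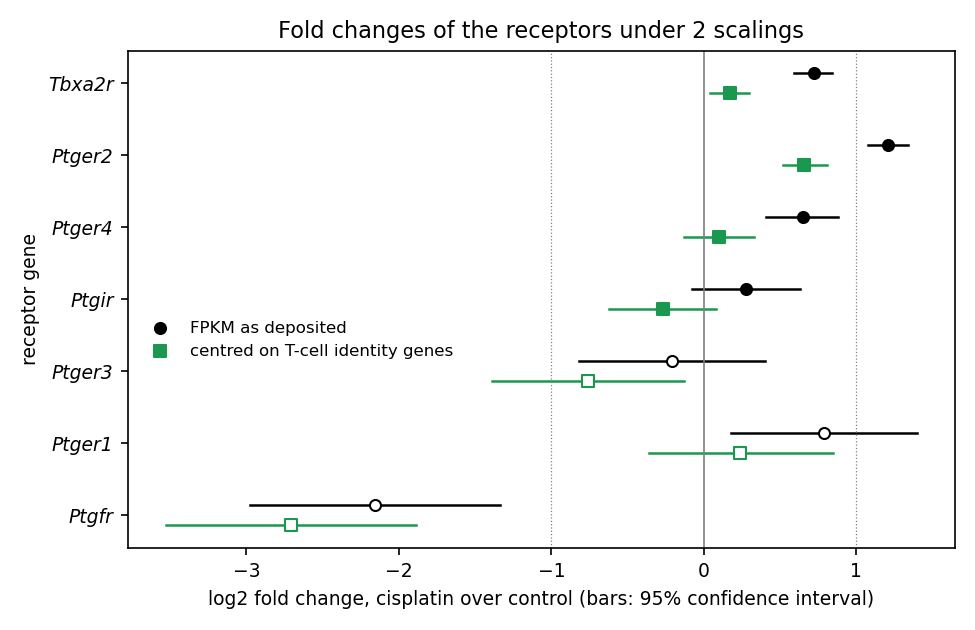
Log2 fold change (cisplatin over control) with its 95% confidence interval by limma for 7 receptors, on the FPKM as deposited (black circles) and with T-cell centring (green squares), with open symbols for the fit with a minimum of 0.1 FPKM, which Ptgfr passed through its control libraries alone. Ptger2 lies above 0 under both scalings (1.21 and 0.66), while Ptger1 moves from 0.79 to 0.24, Ptger4 moves from 0.65 to 0.10 and Ptgir from 0.28 to -0.27.

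By the distance between profiles, the protein-coding genes most like Tbxa2r were Txndc16, Hvcn1 (a voltage-gated proton channel) and Frat2. The distance was the root mean square difference of log2(FPKM + 0.1), centred on the mean of each gene, over the 6 libraries and 7664 genes of at least 5 FPKM, and came to 0.033, 0.0390 and 0.0428. Txndc16 had 4.17 ± 0.159 and 6.78 ± 0.195 FPKM (SD, n = 3 each) in the control and cisplatin libraries, Hvcn1 9.92 ± 0.381 and 16.5 ± 0.254 FPKM, and Frat2 7.60 ± 0.124 and 13.04 ± 0.402 FPKM.

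The enzymes that make the ligands fell in part. Of 12 synthesis genes, 11 were tested, of which 2 were higher and 6 lower by limma, where 27.5% and 29% of all tested genes were, with a median log2 fold change of -0.55, against 0.03 over all tested genes. The lists that follow are read against the same shares and median. With the centring the median over all tested genes was -0.52, and the medians of the lists moved down too, to -1.10 for this one. At the 2-fold minimum the centring gave 149 genes higher and 3570 lower. For its counts by adjusted p alone, no share over all genes is given. Ptgis, the prostacyclin synthase, fell from 66.2 ± 2.13 to 11.1 ± 0.297 FPKM (SD, n = 3 each), Ptgs1 (cyclooxygenase 1) from 20.7 ± 1.35 to 4.89 ± 0.246 FPKM, and Ptgs2 (cyclooxygenase 2) from 23.0 ± 1.83 to 8.003 ± 0.485 FPKM. Ptges, the inducible PGE2 synthase, fell by 0.79 on the log2 scale (adjusted p = 0.005 by limma), and Hpgds, a PGD2 synthase of haematopoietic cells, rose by 1.22 (adjusted p = 3.6e-04 by limma). Of the 6 genes of transport and breakdown, 4 were tested, of which 1 was higher and 2 lower by limma, with a median log2 fold change of -0.20. Ptgr1, which reduces prostaglandin breakdown products, fell by 2.90 on the log2 scale (adjusted p = 1.3e-07 by limma), and Cbr1 rose by 0.55 (adjusted p = 0.016 by limma). The ID8 markers fell in the same libraries, and their part in these falls was not tested.

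Behind the receptors that raise cAMP, the genes of the pathway to CREB moved by less than the 2-fold minimum, with log2 fold changes of -0.94 to 0.50. Of 25 genes, 19 were tested, 9 were higher and 5 lower by the same test, and the median log2 fold change was 0.13, or -0.42 with the centring. Adcy7, the adenylyl cyclase with the highest level here, rose from 39.9 ± 2.12 to 53.8 ± 0.962 FPKM (SD, n = 3 each), and Csk, the kinase that holds Lck inactive and that protein kinase A activates, from 52.9 ± 1.12 to 73.5 ± 3.66 FPKM. Prkaca, a catalytic subunit of protein kinase A, fell from 29.4 ± 1.12 to 22.2 ± 0.903 FPKM. Of 12 phosphodiesterases, which act on cyclic nucleotides, 8 were tested, 6 were higher by limma, with a median log2 fold change of 0.49, beside 0.59 for the T-cell genes. With the centring 2 were higher and 2 lower, with a median of -0.06. Pde4a and Pde4c, which had not passed, had log2 fold changes of 0.13 and 0.46. Pde8a rose by 1.05 (adjusted p = 2.1e-04 by limma), and Pde7a from 15.3 ± 0.321 to 25.4 ± 0.954 FPKM.

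The genes behind the receptors that act through Gq, G12 and Gi moved both ways. All 18 were tested, with 11 lower and 4 higher by limma and a median log2 fold change of -0.32, or -0.87 with the centring. Plcb2, the phospholipase C isoform of blood cells, rose by 0.75 (adjusted p = 4.6e-05 by limma) and Arhgef1, a guanine nucleotide exchange factor of lymphocytes, by 0.58 (adjusted p = 9.3e-06 by limma). Gnai1 fell by 2.52 (adjusted p = 1.2e-05 by limma) and Plcb4 by 1.24 (adjusted p = 2.1e-05). Plcb1, at 0.916 FPKM in the control and 0.229 FPKM in the cisplatin libraries, passed the filter through its control libraries alone. Of the 7 kinases and arrestins that switch off such receptors, 6 were higher and 1 lower, where 27.5% and 29% of all tested genes were. Their median log2 fold change was 0.62, beside 0.59 for the T-cell genes. With the centring 1 was higher and 3 lower, with a median of 0.07. Grk5 rose by 1.09 (adjusted p = 2.1e-04 by limma), and Arrb1 fell from 28.6 ± 0.832 to 9.82 ± 0.064 FPKM (SD, n = 3 each). The ID8 markers (16 of 16 tested lower) and the T-cell genes (26 of 27 higher) moved in the same libraries, and their part in the falls and rises of these lists was not tested.

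**Figure D4:**
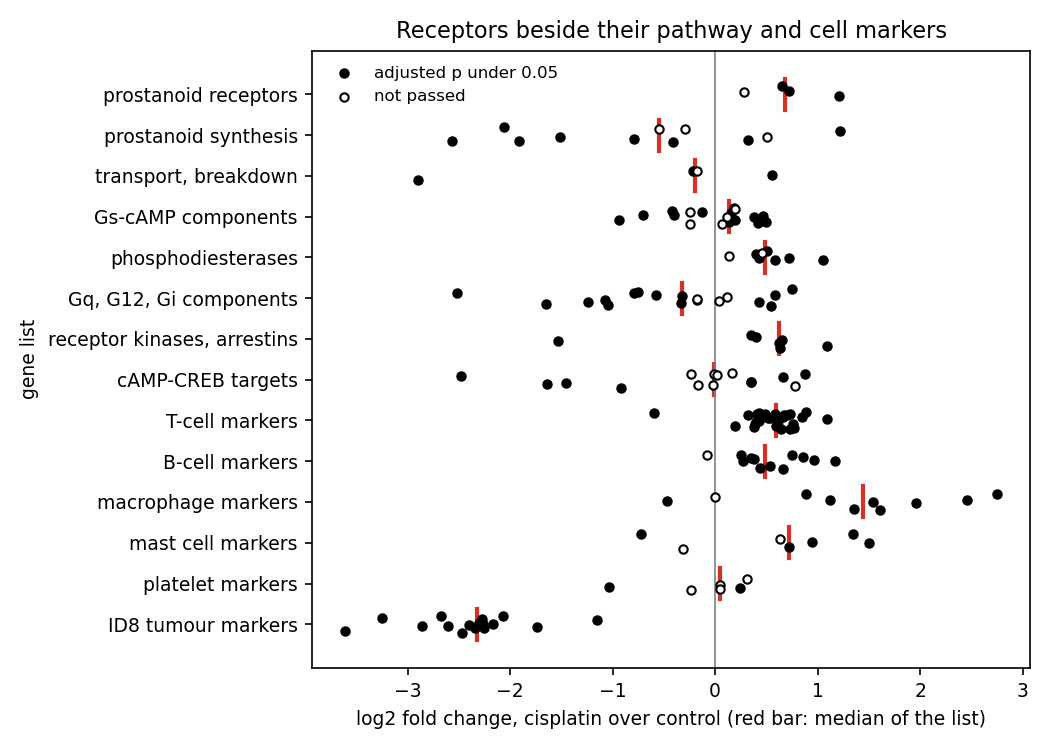
Log2 fold change (cisplatin over control) of each tested gene of 14 lists, filled where the adjusted p-value by limma was under 0.05 and open where not, with a red bar at the median of the list. The median of the 4 tested receptors (0.68) lies near those of the T-cell markers (0.59) and B-cell markers (0.48). The receptors run from 0.28 (Ptgir) to 1.21 (Ptger2), where the highest T-cell marker is at 1.09. The synthesis genes (median -0.55) spread towards the ID8 tumour markers (median -2.32).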

How the data were processed

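RNA sequencing libraries of 6 mouse T-cell co-cultures were analysed, 3 cisplatin and 3 control, grouped by the sample titles. The authors deposited 1 table of FPKM values. Per the labels, reads were cleaned with fastp, aligned to mm10 with HISAT2 2.0.5 and counted with featureCounts 1.5.0-p3, whereas the methods of the paper name LifeScope. In each library, FPKM times gene length lay within 0.1 of whole multiples of a single step for 100% of values, from which reads were rebuilt (intervals and floors from them cover counting error only). Median-of-ratios factors of the deposited FPKM were alike (1.01 in each library), so this scaling changes nothing. The library totals behind the FPKM were 1.03 to 1.049 times the rebuilt reads in the cisplatin and 0.976 to 0.982 times in the control libraries. They therefore differed from the depth on genes by group. Scaled by the rebuilt reads, the log2 fold change was 1.29 for Ptger2 and 0.80 for Tbxa2r. Start and end were those of GENCODE M21 for 53499 of 54409 shared genes.

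The tests were made in R 4.3.3 by limma 3.58.1 (lmFit, then eBayes allowing a trend) on log2(FPKM + 0.1) for genes averaging 0.5 FPKM or more, Benjamini-Hochberg adjusted over all 15874. Calls needed a 2-fold difference and an adjusted p-value below 0.05. Receptors and gene lists were chosen with earlier results of these data known. Any gene of the lists could be named, and the 3 genes nearest to the most abundant receptor. Prxl2b is listed as Fam213b in the table. The steps were tested on simulated data, where part of the known differences was missed, and the share asked for was lowered after a first run had missed it in 1 of 3 fits. No 2 replicates agreed within sampling noise (chi-square per gene 5.35 to 6.44). Python 3.11.15, numpy 2.4.6, pandas 2.3.3, scipy 1.17.1 and matplotlib 3.10.9 were used. The alternatives were other pseudocounts, filters, scalings and variance priors, limma's voom on rebuilt reads (3 libraries or more with 10 reads), leaving out each library and the replicate number as a block.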

Additional observations from a re-analysis of the deposited data

How the results depend on the processing

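Ptger2 and Tbxa2r kept their direction and stayed under an adjusted p-value of 0.05 by limma in all 19 alternatives. Ptgfr was run in 9, and entered those with a minimum level through its control libraries. The number of receptors called was 1 of 4 tested, beside 2687 of all 15874 genes. It became 2 of 7 with a minimum of 0.1 FPKM, beside 3274 of 22369 genes. Without a filter it was 2 of 8 (3202 of 33456 genes), and with voom 2 of 7 (3533 of 18541 genes). In these settings Ptgfr entered the fit. The number was 0 of 4 with T-cell centring (3719 of 15874 genes), where Ptger2 fell short of the 2-fold minimum and Ptgir turned to -0.27. Of 82 pathway genes tested, 17 were called. Their count became 10 of 82 with a pseudocount of 1, and 8 of 51 with a minimum of 5 FPKM. The genes called overall became 1762 of 15874 and 1145 of 8422. Leaving out a library gave log2 differences of 0.47 to 0.57 for the ratio of Ptger2 to Tbxa2r. Same-numbered libraries did not deviate together (correlations -0.063 to 0.023). With the replicate number as a block, 1 of 4 receptors, 17 of 82 pathway genes and 2662 of 15874 genes were called. Chosen after the data were seen were the scaling by rebuilt reads and the fits that combine the minimum of 0.1 FPKM with the centring or with a library left out. Depth limits Ptgdr and Ptgdr2, which had at most 7 and 2 reads in a library.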

Other observations

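Genes that cAMP and CREB are known to induce gave no common direction on the FPKM as deposited. Of 17 such genes, 15 were tested, with 4 higher, 4 lower and 7 not passed by limma, and a median log2 fold change of -0.01, where 27.5% of all tested genes were higher and 29% lower. After centring, 0 were higher and 11 lower, and the median was -0.55, beside -0.52 over all tested genes. Nr4a1, an early target in activated T cells, had 4.17 ± 0.257 FPKM in the control and 4.15 ± 0.277 FPKM in the cisplatin libraries (SD, n = 3 each), and Crem, whose short products restrain CREB, had 3.35 ± 0.071 and 3.40 ± 0.144 FPKM. Fosl2 fell from 34.9 ± 1.90 to 6.19 ± 0.606 FPKM and Nfil3 from 31.8 ± 1.56 to 11.6 ± 1.005 FPKM, whereas Nr4a3 rose by 0.66 (adjusted p = 0.0019 by limma) and Rgs2, an inhibitor of Gq signalling, by 0.88 (adjusted p = 0.0053 by limma) on the log2 scale. The ID8 markers fell in the same libraries (median log2 fold change -2.32), and their part in these falls was not tested.

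Markers of other cells that carry prostanoid receptors were also looked up. Over all tested genes, 27.5% were higher and 29% lower by limma. The 9 mast cell and basophil markers summed to 22.2 to 26.8 FPKM in the control and 36.2 to 41.1 FPKM in the cisplatin libraries, with 4 of 7 tested higher and 1 (Kit) lower. The 6 NK-cell markers summed to 8.46 to 8.99 and 9.80 to 11.7 FPKM, and the 4 tested, with log2 fold changes of 0.08 to 0.64, did not pass the test. The 9 neutrophil markers summed to 0.452 to 1.44 and 3.23 to 4.31 FPKM, most of the difference in Mpo and Elane, while S100a8, S100a9 and Ly6g were under 0.5 FPKM in each group mean. Mpo and Elane passed the filter through their cisplatin libraries alone. The 7 stromal markers summed to 41.1 to 42.6 and 9.44 to 9.50 FPKM, nearly all Dcn (39.2 and 7.51 FPKM), with Col3a1 at 0 in every library. Dcn fell by 2.37 on the log2 scale, beside a median of -2.32 for the ID8 markers. The part of any of these cells in the receptor levels was not tested.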
